A study of Homo sapiens with 6 samples.

Results

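The matrix metalloproteinases (MMPs) and their inhibitors were examined in RNA from ARPE-19 cells, WT or POLDIP2 KO. The set is 10 genes chosen by name out of 37902 in the deposited table: the proteases MMP1, MMP2, MMP3, MMP10, MMP14 and MMP15, the tissue inhibitors TIMP1, TIMP2 and TIMP3, and RECK. All 10 are in the table, and 7 of them averaged 10 or more normalised counts per library and could be tested. MMP1, MMP3 and MMP10 were under that level and are described by their reads alone. MMP2 is also a gene that the study picked from these libraries, so its direction here is not independent evidence.

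ARPE-19, an established human line, comes from the retinal pigment epithelium (RPE), the cell layer behind the photoreceptors. WT is the parental line under regular maintenance, and POLDIP2 KO was made from it with a lentivirus carrying SpCas9 and an sgRNA against the POLDIP2 coding sequence, followed by puromycin selection and expansion. The knockout is 1 selected line, not stated to be a clone, and WT is not described as having received virus, Cas9 or puromycin, so the effects of these steps and of the lost gene cannot be told apart. RNA was taken at day 3 from 3 biological replicates of each line, which gives 6 stranded mRNA libraries in 2 groups, with 31532797 to 45795509 recovered reads each. The values are normalised counts, in which the authors divided the reads of each library by a size factor. POLDIP2 itself, as a check of the labels, had normalised counts of 3919 to 4827 in WT and of 1063 to 1248 in POLDIP2 KO. POLDIP2 KO replicate 1 stands apart in some stromal genes such as COL1A2. Log2 differences of genes highest in that library are given with and without it where they turn or move most. Values of single libraries are listed below in replicate order (1, 2, 3), and a log2 difference is the mean log2 value of POLDIP2 KO minus that of WT.

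MMPs are zinc-dependent proteases that cut collagens, laminins, proteoglycans and other matrix proteins, and most are secreted as inactive proenzymes. TIMPs bind the active site of MMPs, and TIMP2 has an additional role, because it docks pro-MMP2 onto MMP14 at the cell surface so that a free MMP14 molecule can activate it. In the eye the RPE secretes MMP2 and TIMPs toward Bruch's membrane, the sheet of matrix on which it rests, and TIMP3 stays bound there; mutations in TIMP3 cause Sorsby fundus dystrophy.

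The genes on which the promoter comparison turns are shown first. RefSeq starts of MMP10, MMP14, MMP15, TIMP1, TIMP3 and RECK were present in the promoter table used here, and MMP1, MMP2, MMP3 and TIMP2 were not matched. The 250 bases before the start are printed 5′ to 3′ on the strand of the gene for MMP10, which lay near 0 in these cells, and for MMP15 and TIMP3, which were expressed, on GRCh38.p14. Capitals mark 3 kinds of motif, each searched on both strands. The AP-1 element was searched as TGANTCA, the core promoter box as TATAAA. The GC box was searched as GGGCGG, which on the other strand reads CCGCCC. No overlap between these motifs occurs in the windows shown. The MMP10 window lies at chr11:102780629-102780878 on the minus strand, the MMP15 window at chr16:58025504-58025753 on the plus strand, and the TIMP3 window at chr22:32801455-32801704 on the plus strand.
MMP10: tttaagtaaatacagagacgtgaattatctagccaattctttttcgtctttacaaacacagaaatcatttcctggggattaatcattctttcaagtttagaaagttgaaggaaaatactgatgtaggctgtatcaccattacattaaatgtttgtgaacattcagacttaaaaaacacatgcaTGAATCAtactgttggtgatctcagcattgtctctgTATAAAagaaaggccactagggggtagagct
MMP15: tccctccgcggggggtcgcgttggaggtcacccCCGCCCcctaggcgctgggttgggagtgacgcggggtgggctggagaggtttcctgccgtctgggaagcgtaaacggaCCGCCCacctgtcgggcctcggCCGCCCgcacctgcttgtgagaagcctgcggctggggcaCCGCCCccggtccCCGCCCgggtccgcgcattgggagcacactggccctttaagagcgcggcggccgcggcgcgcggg
TIMP3: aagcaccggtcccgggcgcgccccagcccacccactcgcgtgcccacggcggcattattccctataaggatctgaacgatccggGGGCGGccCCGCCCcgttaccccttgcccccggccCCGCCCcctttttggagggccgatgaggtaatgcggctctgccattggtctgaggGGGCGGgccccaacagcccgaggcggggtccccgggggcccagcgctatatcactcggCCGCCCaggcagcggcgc

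The MMP10 window holds an AP-1 element from 67 to 61 bases before the start and a TATAAA from 31 to 26 bases before it, and no GC box. It is poor in G and C at 34.4%, against a median of 58.0% over 35116 RefSeq promoter windows of the same length. The MMP15 and TIMP3 windows hold 5 GC boxes each, with neither TGANTCA nor TATAAA, and are 74.8% and 72.4% G and C. MMP14, TIMP1 and RECK had 1, 2 and 3 GC boxes and none of the other motifs. Their windows were 56.8%, 64.8% and 63.6% G and C, so that of MMP14, an expressed gene, lay under the median. Over all 35116 windows, 6.57% hold TGANTCA, 10.7% hold TATAAA and 42.6% hold GGGCGG. These matches describe letters in a window and not occupied sites.

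Per kb of the canonical transcript in GENCODE release 44, TIMP1, TIMP2, TIMP3 and the membrane protease MMP14 were the most abundant members of the set in both lines. In WT the level per kb was 11410 ± 4630 normalised counts for TIMP2, 5656 ± 1443 for MMP14, 4789 ± 2421 for TIMP3 and 3094 ± 321 for TIMP1 (mean ± SD, n = 3 libraries). MMP15 at 493 ± 89.3, RECK at 293 ± 40.4 and MMP2 at 166 ± 84.5 per kb formed a lower tier in WT. In POLDIP2 KO the level per kb was 9677 ± 3648 for TIMP2, 6836 ± 3776 for TIMP3, 6234 ± 2239 for MMP14 and 3266 ± 278 for TIMP1. The lower tier in POLDIP2 KO had MMP15 at 631 ± 118, MMP2 at 547 ± 220 and RECK at 301 ± 21.4 per kb. The order of the neighbours MMP14 and TIMP3 differed from library to library in both lines, as did that of TIMP3 and TIMP1 in WT and that of MMP15 and MMP2 in POLDIP2 KO. TIMP2 was above TIMP3 in every library, although their ranges in POLDIP2 KO overlapped. The step from TIMP1 down to MMP15 was wider than the spread in both lines. Lengths are of 1 transcript per gene, so the levels compare genes only roughly.

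**Figure D1:**
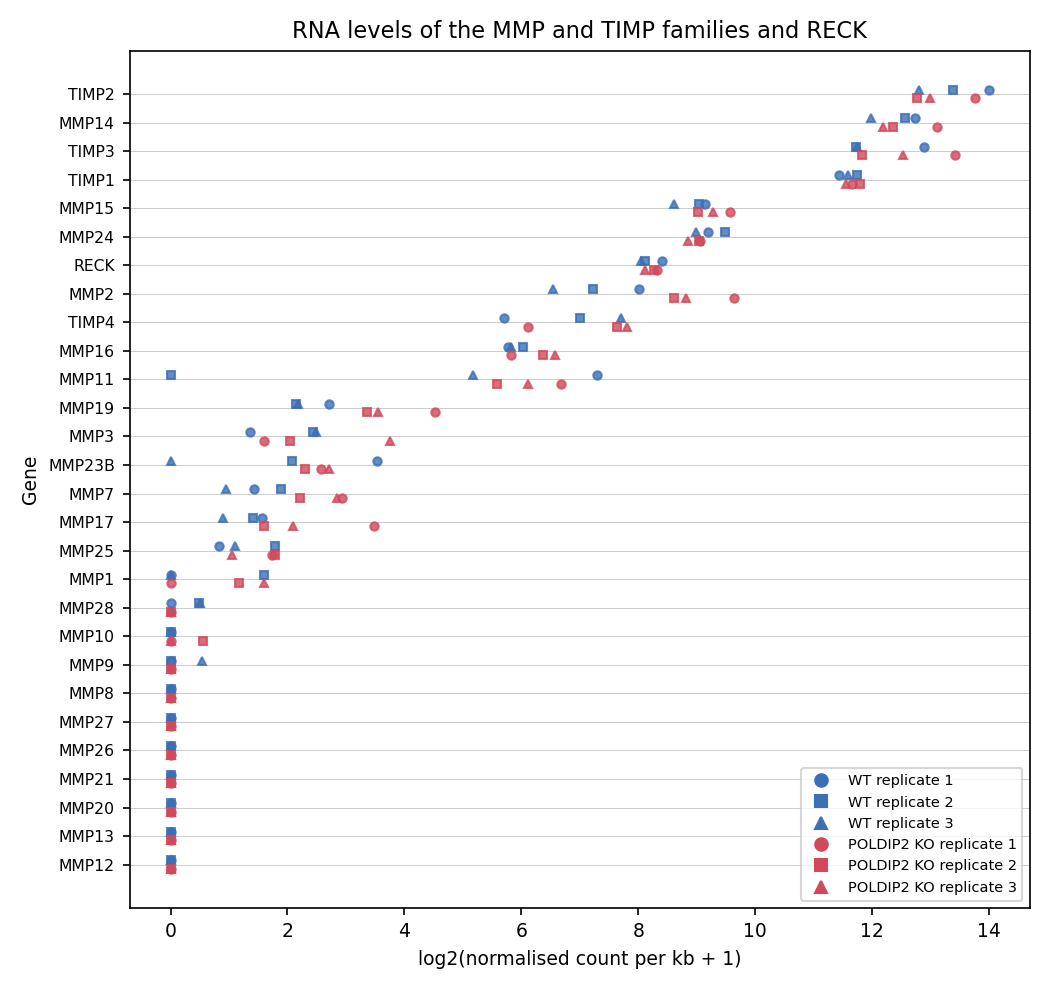
Levels of 28 genes (the MMP and TIMP families and RECK) as log2(normalised count per kb + 1), with a point for each of the 6 libraries, WT in blue and POLDIP2 KO in red, and a marker shape for each replicate number. TIMP2, MMP14, TIMP3 and TIMP1 lie highest, and 7 MMPs lie at 0 in every library.

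The secreted collagenase MMP1 and the stromelysins MMP3 and MMP10 were at or near 0 in both lines. MMP1, which cuts fibrillar collagen, had 0, 4 and 0 reads in WT and 0, 3 and 4 reads in POLDIP2 KO. MMP10 (stromelysin-2) had 1 read in POLDIP2 KO replicate 2 and 0 reads in the other 5 libraries, which is under the floor of 3 reads that a count of 0 allows. MMP3 (stromelysin-1, which can also activate other pro-MMPs) had 3, 8 and 8 reads in WT and 3, 7 and 23 reads in POLDIP2 KO. The lines overlapped for all 3 genes, and at this depth a difference was not detectable. They lie side by side on chromosome 11 of GRCh38, MMP10 at chr11:102770502-102780628, MMP1 at chr11:102789401-102798160 and MMP3 at chr11:102835801-102843609, all on the minus strand. The 9 MMP genes of this cluster span 435 kb, and 5 of them (MMP20, MMP27, MMP8, MMP12 and MMP13) had 0 reads in every library. MMP7, the remaining gene of the cluster, had 24 reads over the 6 libraries and at most 7 in any library. WTAPP1, a pseudogene on the opposite strand that overlaps MMP1, MMP3 and MMP10, averaged 0.315 normalised counts in WT against 2.10 in POLDIP2 KO.

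MMP2 (gelatinase A, which cuts denatured collagen and basement membrane collagen) was the member with the largest difference between the lines. The gene lies at chr16:55389700-55506691 of GRCh38 on the plus strand. Its normalised counts were 908, 520 and 325 in WT and 2804, 1378 and 1581 in POLDIP2 KO. Each POLDIP2 KO library lay above every WT library, although replicate 1 was the highest of its line in both. The means were 584 ± 297 and 1921 ± 771 (± SD, n = 3 libraries each), and the log2 difference was 1.77 (SE 0.413), or 3.41-fold, with a 95% interval of 0.79 to 2.75 on the log2 scale. The exact two-sided permutation p value was 0.1, the smallest that 3 libraries against 3 can give. In limma across 14684 genes the unadjusted p value of MMP2 was 0.0036 and the adjusted p value was 0.267, so MMP2 did not pass the threshold of 0.05. Within same-numbered pairs, MMP2 was 3.09-fold, 2.65-fold and 4.87-fold higher in POLDIP2 KO for replicates 1, 2 and 3. A limma fit blocked on replicate number gave MMP2 an interval from 1.30 to 2.24 and an adjusted p value of 0.0573. DESeq2 on the recovered reads gave MMP2 an adjusted p value of 0.00209 with a log2 difference of 1.72 (SE 0.4). EdgeR gave adjusted p values of 0.334 without the block and 0.0784 with it. The study itself used DESeq2 on these libraries, with the same thresholds, and lists MMP2 among its upregulated genes. Whether MMP2 is called thus depends on the method. Without POLDIP2 KO replicate 1, the log2 difference of MMP2 was 1.46 (limma adjusted p = 0.457), and both remaining POLDIP2 KO libraries lay above all 3 WT libraries.

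In limma, 0 of the 7 members tested passed an adjusted p value of 0.05 with a fold change over 1.5, against 0.17% of the 14684 genes tested (25 genes). At an unadjusted p value under 0.05 limma gave 1 of the 7, MMP2, against 6.48% of all genes (3.0% in the same direction). With the replicate block, 0 of the 7 were called, against 0.204% of all genes, and 2 had an unadjusted p value under 0.05, MMP2 and TIMP3, against 11.1%. EdgeR called 0 of 7 without the block (0.116% of all genes) and 0 with it (0.0341%), and DESeq2 called MMP2 alone (1.69% of all genes, 0.756% as higher in POLDIP2 KO). Libraries of the lines did not overlap for 1 of the 7, MMP2, against 10.9% of all genes, of which POLDIP2 KO was higher for 5.46% and lower for 5.44%. Of the 7, 6 had a higher mean log2 value in POLDIP2 KO, with a median log2 difference of 0.12 for the 7, beside 0.00 over all genes tested. These shares are counts over 7 genes and are no result about the set.

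**Figure D2:**
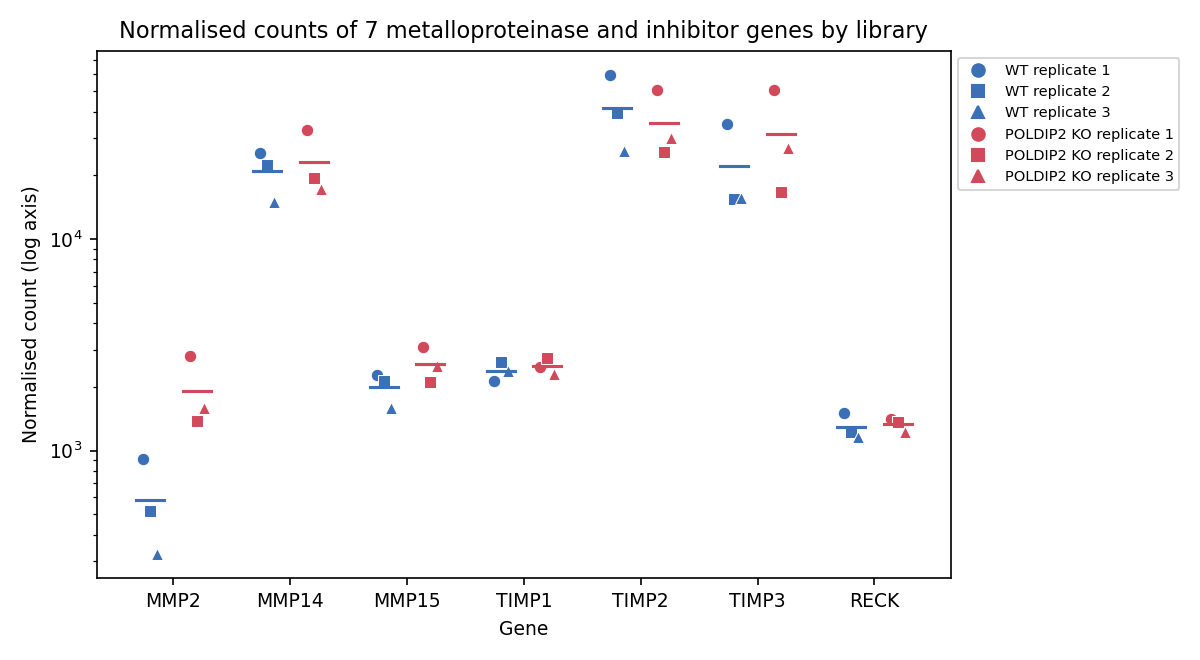
Normalised counts (log axis) of the 7 genes tested, with a point for each library, WT in blue and POLDIP2 KO in red, marker shapes for replicates 1, 2 and 3, and a bar at the mean of the 3 libraries. MMP2 is the gene whose lines do not overlap, and replicate 1 is highest in both lines for MMP2, MMP14, MMP15, TIMP2, TIMP3 and RECK.

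MMP14 (MT1-MMP, a membrane-anchored collagenase and the activator of pro-MMP2) had normalised counts of 25338, 22464 and 14994 in WT and of 32566, 19365 and 17283 in POLDIP2 KO. The lines overlapped over most of their range. Its log2 difference was 0.12 (SE 0.289, interval -0.57 to 0.80, limma adjusted p = 0.9998), an interval whose upper end lies above 1.5-fold. The sign of MMP14 turned to -0.16 without POLDIP2 KO replicate 1 and to -0.11 without WT replicate 3.

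MMP15 (MT2-MMP, another membrane-anchored protease) had 2282, 2130 and 1592 normalised counts in WT against 3071, 2113 and 2508 in POLDIP2 KO. POLDIP2 KO replicate 2 lay inside the WT range, and the other POLDIP2 KO libraries lay above it. Its log2 difference was 0.36 (SE 0.189, interval -0.09 to 0.80, limma adjusted p = 0.923), and without POLDIP2 KO replicate 1 it was 0.22. MMP14 lies at chr14:22836560-22849041 and MMP15 at chr16:58025754-58046901, both on the plus strand.

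TIMP1 varied least of the set between libraries. It is a secreted inhibitor of most soluble MMPs and lies at chrX:47582408-47586789 on the plus strand. Normalised counts of TIMP1 were 2138, 2632 and 2367 in WT and 2487, 2736 and 2311 in POLDIP2 KO, and the ranges overlapped. The log2 difference of TIMP1 was 0.08, with an interval from -0.21 to 0.37 that lies inside 1.5-fold in both directions (limma adjusted p = 0.9998).

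TIMP2 was the only member tested with a lower mean log2 value in POLDIP2 KO. Its normalised counts were 59704, 39163 and 26165 in WT and 50527, 25621 and 29873 in POLDIP2 KO. The spread within each line was wider than the distance between the lines. The log2 difference was -0.22 (SE 0.357, interval -1.07 to 0.62, limma adjusted p = 0.9998), and it was 0.08 without WT replicate 1 and -0.51 without POLDIP2 KO replicate 1. TIMP2 lies at chr17:78852977-78925387 on the minus strand, and CEP295NL, which shares that strand and part of the locus, averaged 18.6 normalised counts in WT against 14.5 in POLDIP2 KO.

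TIMP3, the matrix-bound inhibitor, was higher in POLDIP2 KO in all 3 same-numbered pairs, as were 17.0% of all genes tested. Its normalised counts were 34866, 15520 and 15660 in WT and 50553, 16683 and 27035 in POLDIP2 KO, which gives 1.45-fold, 1.08-fold and 1.73-fold by pair. Replicate 1 of WT lay above replicates 2 and 3 of POLDIP2 KO, so the lines overlapped. The log2 difference of TIMP3 was 0.48 (interval -0.62 to 1.58, limma adjusted p = 0.9998), while in the blocked limma fit the interval was 0.13 to 0.83 and the adjusted p value 0.297. Without POLDIP2 KO replicate 1 its log2 difference was 0.06. TIMP3 lies at chr22:32801705-32863041 on the plus strand, inside SYN3 on the opposite strand, which averaged 39.8 normalised counts in WT against 38.3 in POLDIP2 KO.

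RECK, a membrane-anchored protein that restrains MMP2, MMP9 and MMP14, had 1496, 1218 and 1164 normalised counts in WT against 1404, 1361 and 1223 in POLDIP2 KO. All 3 POLDIP2 KO values lay inside the WT range. Its log2 difference was 0.05 with an interval from -0.27 to 0.36 (limma adjusted p = 0.9998), and without WT replicate 3 it was -0.02. The gene lies at chr9:36036913-36124455 on the plus strand.

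**Figure D3:**
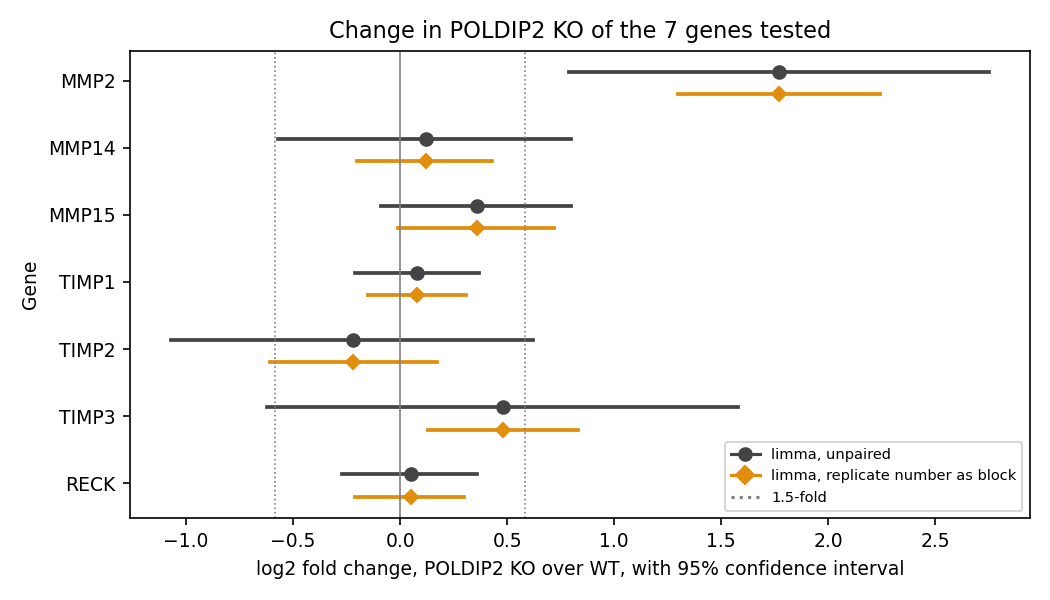
Log2 fold change of POLDIP2 KO over WT for the 7 genes tested, with 95% confidence intervals from limma without (grey circles) and with (orange diamonds) the replicate number as a block; dotted lines mark 1.5-fold. MMP2 is at 1.77 with the interval 0.79 to 2.75, and the unpaired intervals of the other 6 genes include 0.

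Replicate 1 was the highest library of both lines for 6 of the 7 genes tested, TIMP1 being the exception, against 22.0% of all genes. TIMP3 in replicate 1 was 2.24 times the mean of replicates 2 and 3 in WT and 2.31 times in POLDIP2 KO. For MMP2 these ratios were 2.15 and 1.90, for TIMP2 1.83 and 1.82, and for MMP14 1.35 and 1.78. In MMP2, TIMP2 and TIMP3 replicate 1 was thus at least 1.5 times the other libraries in both lines, as in 4.89% of all genes. The labels do not say what distinguishes replicate 1. The standard deviation within lines on the log2 scale was 0.739 for TIMP3, 0.65 for MMP2, 0.556 for TIMP2 and 0.444 for MMP14, against a median of 0.237 over all genes tested. It was 0.137 for TIMP1, 0.155 for RECK and 0.273 for MMP15.

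Deviations from the line means moved together in most of the set. Over the 6 libraries, Pearson's r of these deviations was 0.91 between MMP2 and MMP14, 0.90 between MMP2 and TIMP3, 0.92 between MMP14 and TIMP2 and 0.91 between TIMP2 and TIMP3. TIMP1 stood apart, with r of -0.67 to TIMP3, -0.43 to MMP2, -0.41 to TIMP2, -0.32 to MMP15, -0.31 to RECK and -0.05 to MMP14. These values are a description, since there are few libraries and replicate 1 was high in both lines for these genes.

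The closest relation was between TIMP2 and MMP2. Per kb of transcript, TIMP2 RNA was 63.3, 72.5 and 77.5 times MMP2 RNA in WT and 17.3, 17.9 and 18.2 times in POLDIP2 KO. Within POLDIP2 KO the ratio had a coefficient of variation of 2.40%, and in WT 10.2%, while MMP2 itself differed between libraries of a line by up to 2.80-fold in WT and 2.03-fold in POLDIP2 KO. The mean ratio was 71.1 ± 7.23 in WT and 17.8 ± 0.428 in POLDIP2 KO (± SD, n = 3 libraries each), 3.99 times higher in WT, without overlap. MMP2 itself was 3.41-fold higher in POLDIP2 KO, while TIMP2 had a log2 difference of -0.22. The step between the lines thus mostly restates the difference in MMP2. How many other genes have a ratio to MMP2 without overlap was not counted. Ranked by the spread of the log2 ratio to MMP2 within lines, TIMP2 was 6 of 14683 genes, MMP14 was 315, TIMP3 was 402 and TIMP1 was 8060. This pair was chosen for description after its values were seen, and no test was made of it.

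Other ratios in the set were compared in the same way, also without a test, and those to MMP2 carry the same difference in MMP2. TIMP3 RNA per kb was 29.4, 22.8 and 36.9 times MMP2 RNA in WT and 13.8, 9.25 and 13.1 times in POLDIP2 KO. For TIMP1 to MMP2 the ratios per kb were 10.8, 23.1 and 33.3 in WT and 4.05, 9.07 and 6.68 in POLDIP2 KO, also without overlap. The ratio of MMP14 to TIMP2 per kb was 0.419, 0.566 and 0.566 in WT and 0.636, 0.746 and 0.571 in POLDIP2 KO, where POLDIP2 KO replicate 3 nearly touched the WT range. TIMP3 to TIMP2 per kb was 0.464, 0.315 and 0.476 in WT and 0.795, 0.517 and 0.719 in POLDIP2 KO, higher in every POLDIP2 KO library. MMP14, TIMP2 and TIMP3 themselves each overlapped between the lines. How many pairs of genes have a ratio without overlap was not counted, so no shift in balance is read from these ratios. The ratio of MMP15 to MMP14 per kb overlapped between the lines, at 0.0821, 0.0864 and 0.0968 in WT and 0.0859, 0.0994 and 0.132 in POLDIP2 KO. All RNA ratios leave out how much of each protein was secreted, bound or activated.

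**Figure D4:**
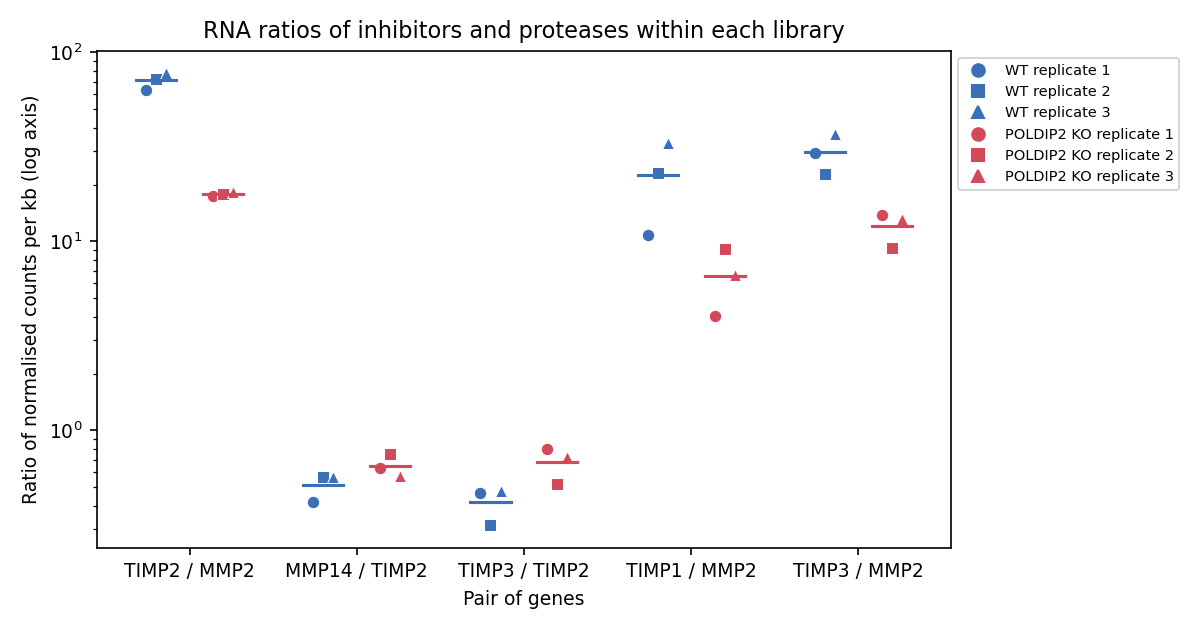
Ratios of normalised counts per kb (log axis) for 5 pairs of genes, with a point for each library, WT in blue and POLDIP2 KO in red, marker shapes for replicates 1, 2 and 3, and a bar at the mean. The TIMP2 to MMP2 ratio lies between 63.3 and 77.5 in WT and between 17.3 and 18.2 in POLDIP2 KO.

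The genes whose log2 values were most like those of a member over the 6 libraries differed from member to member. For MMP2 they were PDZK1IP1 (r = 0.993), FSHR (0.99) and PTGFR (0.989), with log2 differences of 3.63, 1.53 and 1.76. For TIMP2 they were CFAP410, ZBTB42 and SLC29A3 (r = 0.999, 0.998 and 0.997), and for TIMP3 MRPL43, TMEM37 and XXYLT1 (0.997, 0.996 and 0.995). MMP14 was closest to NPC2, SNX8 and ARSJ (0.998, 0.997 and 0.996), and MMP15 to ACAP3, HLA-F and PDE4DIP (0.995, 0.995 and 0.991). For TIMP1 the list was ABCB9, ABHD6 and ZNF324B (0.992, 0.986 and 0.982), and for RECK it was WNT4, ITGB3 and LANCL3 (0.997, 0.987 and 0.986). With 6 libraries such values are common: 184 genes had r above 0.95 with TIMP3, 47 with MMP2 and 18 with RECK.

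Among the 17 other MMPs, 4 were tested and none was called by limma (0.17% of all genes), DESeq2 (1.69%) or edgeR (0.116%). At an unadjusted p value under 0.05 limma gave 1 of the 4, MMP19, a secreted MMP, against 6.48% of all genes. MMP19 had 17.95, 11.04 and 11.49 normalised counts in WT against 71.4, 30.1 and 34.8 in POLDIP2 KO, without overlap, with a log2 difference of 1.61 (SE 0.47, limma adjusted p = 0.442). MMP19 was highest in POLDIP2 KO replicate 1, and without that library its log2 difference was 1.23 (limma adjusted p = 0.617). MMP16 and MMP24, both membrane-anchored, had log2 differences of 0.39 and -0.24 (limma adjusted p = 0.945 and 0.984). MMP11 (stromelysin-3) was listed at 0 in WT replicate 2 against 354 and 79.4 in the other WT libraries, and at 229, 107 and 154 in POLDIP2 KO, so its fold change is not given. Of the remaining 13, 7 had 0 reads in every library, and MMP9 (gelatinase B) had 1 read over the 6 libraries together.

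Of 8 further genes linked to the control of MMPs or their activators, 6 were tested. None of the 6 was called by limma (0.17% of all genes), while DESeq2 called SERPINE2 (1.69% of all genes). At an unadjusted p value under 0.05 limma gave 3 of the 6, against 6.48% of all genes, of which SERPINE2 was higher and SPOCK3 and TFPI2 were lower in POLDIP2 KO. SERPINE2, an inhibitor of thrombin, urokinase and plasmin, had 592, 944 and 773 normalised counts in WT against 1165, 1564 and 1290 in POLDIP2 KO, a log2 difference of 0.81 (SE 0.201, limma adjusted p = 0.295, DESeq2 adjusted p = 0.0283). TFPI2, a serine protease inhibitor of the matrix, had a log2 difference of -0.55 (limma adjusted p = 0.714), and SPOCK3, a proteoglycan, of -1.44 (limma adjusted p = 0.621). SPOCK3 was low, with 26, 18 and 13 reads in WT against 4, 7 and 8 in POLDIP2 KO. TIMP4, the last of the TIMPs, had 61.4, 152 and 248 normalised counts in WT against 81.2, 238 and 266 in POLDIP2 KO, and unlike TIMP2 and TIMP3 it was lowest in replicate 1 of both lines.

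Of the 12 genes of pro-MMP activation (convertases, the plasmin system and MMP inducers), 10 were tested. Limma, edgeR and DESeq2 called none of the 10, against 0.17%, 0.116% and 1.69% of all genes. None had an unadjusted p value under 0.05 in limma, against 6.48% of all genes. The 3 with the smallest p values were BSG (EMMPRIN, a surface inducer of MMPs), CD44 and PCSK5, with log2 differences of 0.22, 0.32 and -0.42 (limma adjusted p = 0.779, 0.9998 and 0.9998). BSG was higher in every POLDIP2 KO library, at 18280, 17976 and 18537 against 14781, 15857 and 16283 normalised counts in WT. FURIN, the convertase that activates MMP14, had a log2 difference of -0.01, with an interval from -0.27 to 0.26.

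The ADAM and ADAMTS families are relatives of the MMPs, and TIMP3 inhibits several of their members. Of 10 ADAM genes 8 were tested and of 18 ADAMTS genes 12. None was called by limma or edgeR (0.17% and 0.116% of all genes), while DESeq2 called ADAMTS6 (1.69% of all genes). At an unadjusted p value under 0.05 limma gave 1 of the 8 ADAM genes, ADAM22, which was higher in POLDIP2 KO. It gave 3 of the 12 ADAMTS genes, ADAMTS20, ADAMTS6 and ADAMTS1, all lower, against 6.48% of all genes. ADAMTS1, a versican-cutting protease, had 2976, 3302 and 3162 normalised counts in WT against 1453, 2040 and 507 in POLDIP2 KO, a log2 difference of -1.46 (SE 0.466, limma adjusted p = 0.531). ADAMTS6 had 1096, 1196 and 851 in WT and 518, 685 and 299 in POLDIP2 KO, a log2 difference of -1.13 (SE 0.307, limma adjusted p = 0.383, DESeq2 adjusted p = 0.0432). ADAMTS20 had log2 difference -2.43 and ADAM22, a catalytically inactive member, 1.01 (limma adjusted p = 0.267 and 0.402). ADAMTS20 was near the floor in POLDIP2 KO, with 5, 7 and 2 reads against 34, 20 and 30 in WT. Of the 12 ADAMTS genes, the libraries of the lines did not overlap for 3 that were lower in POLDIP2 KO, ADAMTS1, ADAMTS6 and ADAMTS20. They also did not overlap for 2 that were higher, ADAMTS4 and ADAMTS9 (log2 differences 0.42 and 0.33). Of the 8 ADAM genes, ADAM22 was higher and ADAM23 lower without overlap. ADAMTS1, ADAMTS6, ADAMTS20 and ADAM22 were picked by their p values. Over all genes tested, 10.9% had no overlap. ADAM23 and ADAM15 had log2 differences of -1.35 and 0.27 (limma adjusted p = 0.779 and 0.831). ADAM23 was also low, with 13, 28 and 13 reads in WT against 7, 5 and 6 in POLDIP2 KO. ADAMTS2 is not analysed here.

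AP-1 and ETS factors, which are known to act on MMP promoters, numbered 12, and all were tested. Limma and edgeR called none of them (0.17% and 0.116% of all genes) and DESeq2 called ETS2 (1.69% of all genes). At an unadjusted p value under 0.05 limma gave ETS2 (higher) and FOSB (lower), against 6.48% of all genes. ETS2 had 472, 634 and 445 normalised counts in WT against 1241, 814 and 828 in POLDIP2 KO, a log2 difference of 0.88 (SE 0.221, limma adjusted p = 0.3, DESeq2 adjusted p = 0.0258). ETS2 also peaked in POLDIP2 KO replicate 1, without which its log2 difference was 0.68 (limma adjusted p = 0.461). FOSB had 89.8, 594 and 246 in WT and 77.5, 74.9 and 89.4 in POLDIP2 KO (log2 difference -1.54, limma adjusted p = 0.746), and ATF3 had a log2 difference of -1.09 (limma adjusted p = 0.791). WT replicate 2 was the highest library for FOSB, ATF3 and FOS.

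Of 15 matrix proteins that MMPs can cut (collagens and laminins left out), 11 were tested. Limma, edgeR and DESeq2 called none of the 11, against 0.17%, 0.116% and 1.69% of all genes. At an unadjusted p value under 0.05 limma gave 2 of the 11, HSPG2 and NID2, both basement membrane components. Both were higher in POLDIP2 KO, against 3.0% of all genes in that direction. HSPG2 (perlecan) had 25972, 18665 and 24304 normalised counts in WT against 48267, 32383 and 31801 in POLDIP2 KO, a log2 difference of 0.69 (SE 0.209, limma adjusted p = 0.477), which was 0.50 without POLDIP2 KO replicate 1. NID2 had 727, 718 and 1868 normalised counts in WT against 2230, 1791 and 3575 in POLDIP2 KO, so the lines overlapped. Its log2 difference was 1.29 (limma adjusted p = 0.547), and that of TNC was 0.68 (limma adjusted p = 0.961). FN1 (fibronectin) followed the replicate number as TIMP3 did, with 78077, 21007 and 25817 in WT and 95744, 30298 and 34562 in POLDIP2 KO.

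The labelled cell type was checked against marker genes. Of 10 RPE markers, KRT8, KRT18, MITF, OTX2, BEST1, PMEL, RLBP1 and TYRP1 passed the filter, while RPE65 had 0 reads in every library and TYR had at most 3 reads. Limma, edgeR and DESeq2 called none of these markers, against 0.17%, 0.116% and 1.69% of all genes. Leukocyte markers were low, with summed normalised counts of 74.1 to 84.3 in WT and 39.4 to 51.6 in POLDIP2 KO over 6 genes. CD3E was at 0 everywhere and PTPRC at most 6.95, but CSF1R, LYZ and ITGAM passed the filter, with WT means of 29.3, 24.5 and 23.2. The 5 endothelial markers summed to 39.7 to 199 in WT and 45.7 to 138 in POLDIP2 KO. CDH5 was at 0 in all libraries but 1, but KDR and VWF passed, with WT means of 71.2 and 25.8. The RPE markers RLBP1 and TYRP1 were as low, with WT means of 43.3 and 12.2, while KRT8 averaged 39540. Passing the filter thus does not separate these cell types. Among 6 mesenchymal markers, VIM was high in all libraries and COL1A1 was called with the replicate block (log2 difference 1.49, limma adjusted p = 0.0436) but not without it (limma adjusted p = 0.981), nor by edgeR with the same block (adjusted p = 0.0603). Without POLDIP2 KO replicate 1 the log2 difference of COL1A1 was 0.65. In POLDIP2 KO replicate 1 some of these markers differed from the rest, with COL1A2 at 614 normalised counts against 0 to 9.45 in the other 5 libraries. PDGFRA did not, at 14.8 in that library against 8.94 to 29.1 in the others. BGN, a matrix gene outside this list, had 22.1 in that library and 0 in the others. POLDIP2 KO replicate 1 was also the library with the highest MMP2, MMP14, MMP15 and TIMP3 values, and the part of other cells in these values was not tested. In bulk RNA, a different share of cells and a different level per cell cannot be told apart.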

How the data were processed

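RNA of 3 WT and 3 POLDIP2 KO libraries was analysed from 1 table of normalised counts. The deposited signal was made by the authors from Salmon 1.8 estimates, summed to genes on GRCh38 and divided by a DESeq2 1.34.0 size factor per library; the annotation release is not given in the sources used here. Reads were recovered by taking the smallest non-zero value of a column as the worth of 1 read, and 100% of values were whole within 0.001. In WT replicate 2 and POLDIP2 KO replicate 3 this step is close to 1, so the check says little there. All columns were used. Of 37902 genes, 34152 have a symbol in GENCODE release 44.

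Expression was compared in R 4.3.3 by limma 3.58.1, on a log scale because the deposited values are not counts. The values were taken as log2(normalised count + 1), which understates the change of low genes, and 14684 genes averaging 10 or more entered the fit, which used eBayes with trend and Benjamini-Hochberg adjustment over all of them. Called genes had adjusted p below 0.05 and changed over 1.5-fold. EdgeR 4.0.16 and DESeq2 1.42.0 were run on the recovered reads as alternatives, beside pseudocounts of 0.5 and 5, other filters, 2 other scalings, other variance priors and fits with a library left out. Same-numbered libraries correlated at 0.315, 0.138 and 0.129 in their deviations from the line means, above the limit of 0.1, so the replicate number was used as a block in an alternative. WT replicate 3 and POLDIP2 KO replicate 2, numbered differently, also passed that limit at 0.147, and the other combinations were below 0. Biological replicates are as labelled, and whether they are separate cultures is not stated further. The p values set the difference between the lines against the spread between these libraries. They do not cover variation between separately made lines. A floor of 3 reads was used, which covers counting error only. Per-length levels use the canonical transcript. The fits were tested on simulated data. Text names all members, the genes of each list that were called or else the 3 with the smallest p value, the 3 genes most like each member, and a few others picked for their role or pattern with their values known. The members and lists were chosen with earlier results of these data known. Figures used Python 3.11.15 and matplotlib 3.10.9.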

Additional observations from a re-analysis of the deposited data

How the results depend on the processing

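The counts of called genes and the log2 differences of the 7 members tested were recomputed under 18 alternatives, while ratios, correlations and levels per kb were not. MMP2 kept its direction in all of them, with a log2 difference of 1.41 to 2.15 when single libraries were dropped (leave-one-out). It passed the threshold by DESeq2 alone (1.72), the method that the study used. The number of members called was 0 in every limma and edgeR alternative and 1 by DESeq2. The number of genes called over the whole table, 25, was 16 with a mean of at least 50, 248 by DESeq2 and 5 by edgeR with the replicate block, and ranged from 0 to 5 with a library left out. It was 0 on dropping replicate 2 or replicate 3 of either line. Without POLDIP2 KO replicate 1 there were 4 genes and without WT replicate 1 there were 5. Limma with the replicate block called 30 genes, and the block changed no call of a member. The sign turned for 3 members with a library left out: MMP14 ranged from -0.16 to 0.30, TIMP2 from -0.52 to 0.08 and RECK from -0.02 to 0.16. The cause was not tested. Scaling moved the median of all genes by less than 0.1 on the log2 scale. With 3 libraries a line, the intervals of MMP14, MMP15, TIMP2 and TIMP3 leave room for changes of over 1.5-fold, and MMP1, MMP3 and MMP10 lie too low for any comparison.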
